A study of Mus musculus with 36 samples.

Results

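Levels and labelling of 8 core pluripotency factors, Pou5f1, Sox2, Sall4, Lin28a, Dppa2, Dppa4, Utf1 and Tdgf1, were followed in mouse embryonic stem cells (mES cells) by SLAM-seq. The 8 genes were picked by symbol and were present in all 6 deposited tables, out of 22979 genes listed in any table and 18419 listed in all of them. SLAM-seq feeds cells 4-thiouridine (4sU), a uridine analogue that enters new RNA and is later read as C in place of T, so that converted reads mark RNA made while the label was present. There were 36 libraries from 3 lines, each grown from 1 clone, in which METTL3 (12D), YTHDC1 (Y12H) or ZCCHC8 (Z12H) carries an FKBP12 F36V tag that lets the small molecule dTAG-13 trigger its degradation.

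In every line the Ctrl arm had no dTAG-13, and the dTAG arm received it from 2 h before doxycycline (Dox). All groups of both arms carried a Cast x 129S hybrid genome and a TetOn promoter with a Bgl stem-loop array on the 129S copy of Xist, and all were given Dox at 1 µg/ml for 20 h before and for the 4 h of the pulse with 500 µM 4sU. Xist was therefore induced in Ctrl as well as in dTAG cells. A chase with 50 mM uridine then lasted 0, 90 or 180 min. There were 2 replicates for each line, arm and chase time, hence 6 libraries per line and arm. The cells were grown on inactivated fibroblast feeders that were removed by plating before the assay. The study describes its RNA-seq replicates in general terms as independent clones or repeats of a clone, with the wells of a biological replicate taken from a shared batch of cells. The sample labels do not say more, so p-values measure the spread between these libraries.

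Pou5f1 (OCT4) and Sox2 are transcription factors that bind DNA together and hold mES cells in the pluripotent state, with Sall4, a zinc finger protein, in the same circuit. Lin28a encodes an RNA-binding protein that blocks maturation of let-7 microRNAs. Dppa2 and Dppa4 form a complex of SAP-domain proteins at chromatin, Utf1 is a chromatin-associated factor of undifferentiated cells, and Tdgf1 (Cripto) is a co-receptor for Nodal at the cell surface. METTL3 is the catalytic subunit that writes m6A on RNA, YTHDC1 binds m6A in the nucleus, and ZCCHC8 is a scaffold of the nuclear exosome targeting complex, which brings transcripts to the exosome for degradation.

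The labelled cell type was checked on 8 mES cell markers, the members Pou5f1, Sox2, Tdgf1 and Utf1, and Nanog, Zfp42, Esrrb and Dppa5a. Every library had reads for all of them, with medians over the 36 libraries of 259 CPM (reads of the gene scaled to a common library size) for Nanog, 445 CPM for Zfp42, 510 CPM for Esrrb and 491 CPM for Dppa5a. The 16 fibroblast markers summed to between 40.1 and 85.5 CPM per library. Fbn1 was the highest of these markers, at 16.7 to 41.0 CPM with a median of 30.9. Thy1 reached at most 17.1 CPM and Col1a1 7.99 CPM, and Lum was at 0 in 22 of 36 libraries. Depth was 5274684 to 18652000 reads per library. Transcripts of the tagged genes stayed measurable, as the tag acts on protein: Mettl3 in the METTL3 line had medians of 56.3 CPM in Ctrl and 59.3 CPM in dTAG, Zcchc8 in the ZCCHC8 line 33.6 and 34.4 CPM, and Ythdc1 in the YTHDC1 line rose from 252 to 372 CPM (log2 fold change 0.60 ± 0.10 SE, edgeR adjusted p = 0.00487). These levels do not check the loss of protein.

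The 8 genes lie on 7 chromosomes of mm10 (GENCODE M21). Pou5f1 is at chr17:35506018-35510772 (+ strand) and Sox2, a gene of 1 exon, at chr3:34650405-34652461 (+). Sox2 lies inside the long noncoding gene Sox2ot on the same strand, so reads from the shared stretch cannot be told apart. Sall4 is at chr2:168748332-168767943 (-), Lin28a at chr4:134003330-134018841 (-), Utf1 at chr7:139943789-139945112 (+) and Tdgf1 at chr9:110939603-110946158 (-). Tdgf1 has 2 annotated pseudogenes, Tdgf1-ps1 and Tdgf1-ps2, with which it may share reads. Dppa4 (chr16:48283733-48294237, +) and Dppa2 (chr16:48303908-48319723, +) are neighbours 9.67 kb apart. Pou5f1, Sall4 and Lin28a each overlap 1 noncoding gene on the other strand, and the use of strand in counting was not stated.

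Label can be read only at T, so base composition sets how many positions of a transcript can report it. T made up 19.9% of the longest coding transcript of Pou5f1, 20.1% for Utf1, 22.4% for Sox2, 23.1% for Sall4, 23.7% for Dppa4, 27.1% for Lin28a and 27.2% for Dppa2 and Tdgf1. The median of 13264 expressed coding genes was 24.2%. The opening 60 bases of 3 coding sequences are printed to show this spacing, 5′ to 3′ on the + strand, with every T in capitals.

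Pou5f1, chr17:35506100-35506159: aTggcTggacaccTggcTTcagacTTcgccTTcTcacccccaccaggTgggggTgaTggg
Sox2, chr3:34650416-34650475: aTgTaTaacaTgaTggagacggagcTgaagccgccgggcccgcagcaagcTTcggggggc
Utf1, chr7:139943874-139943933: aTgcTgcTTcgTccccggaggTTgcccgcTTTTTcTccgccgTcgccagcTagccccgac

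These stretches hold 13, 8 and 15 T, respectively. A Utf1 transcript is also rich in G and C (63.5%, above 99.1% of the 13264 genes), followed by Pou5f1 (57.6%) and Sall4 (53.8%), whereas Dppa2 had the lowest share among the 8 (43.6%). Each read covered a median of 24.3 T positions for Utf1, 24.7 for Pou5f1, 25.8 for Sox2 and up to 33.2 for Tdgf1.

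Per kilobase of the deposited gene length, Pou5f1 was the most abundant of the 8 in Ctrl cells. Its level over 18 Ctrl libraries was 386 to 687 CPM per kb with a median of 492, above the highest value of any other member (148, in Sox2). The medians of the rest followed as Tdgf1 (108 CPM per kb), Sox2 (93.5), Lin28a (79.6), Sall4 (75.5), Dppa4 (71.5), Utf1 (57.0) and Dppa2 (51.9). Each neighbouring pair in this order below Pou5f1 overlapped in its ranges. The values of Utf1 ran from 10.4 to 129 CPM per kb. In bulk RNA a lower value cannot separate fewer cells of a type from less RNA per cell.

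The question put to each line was whether degradation of the tagged protein changed the level of the factors. The plot of levels shows all 36 libraries.

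**Figure D1:**
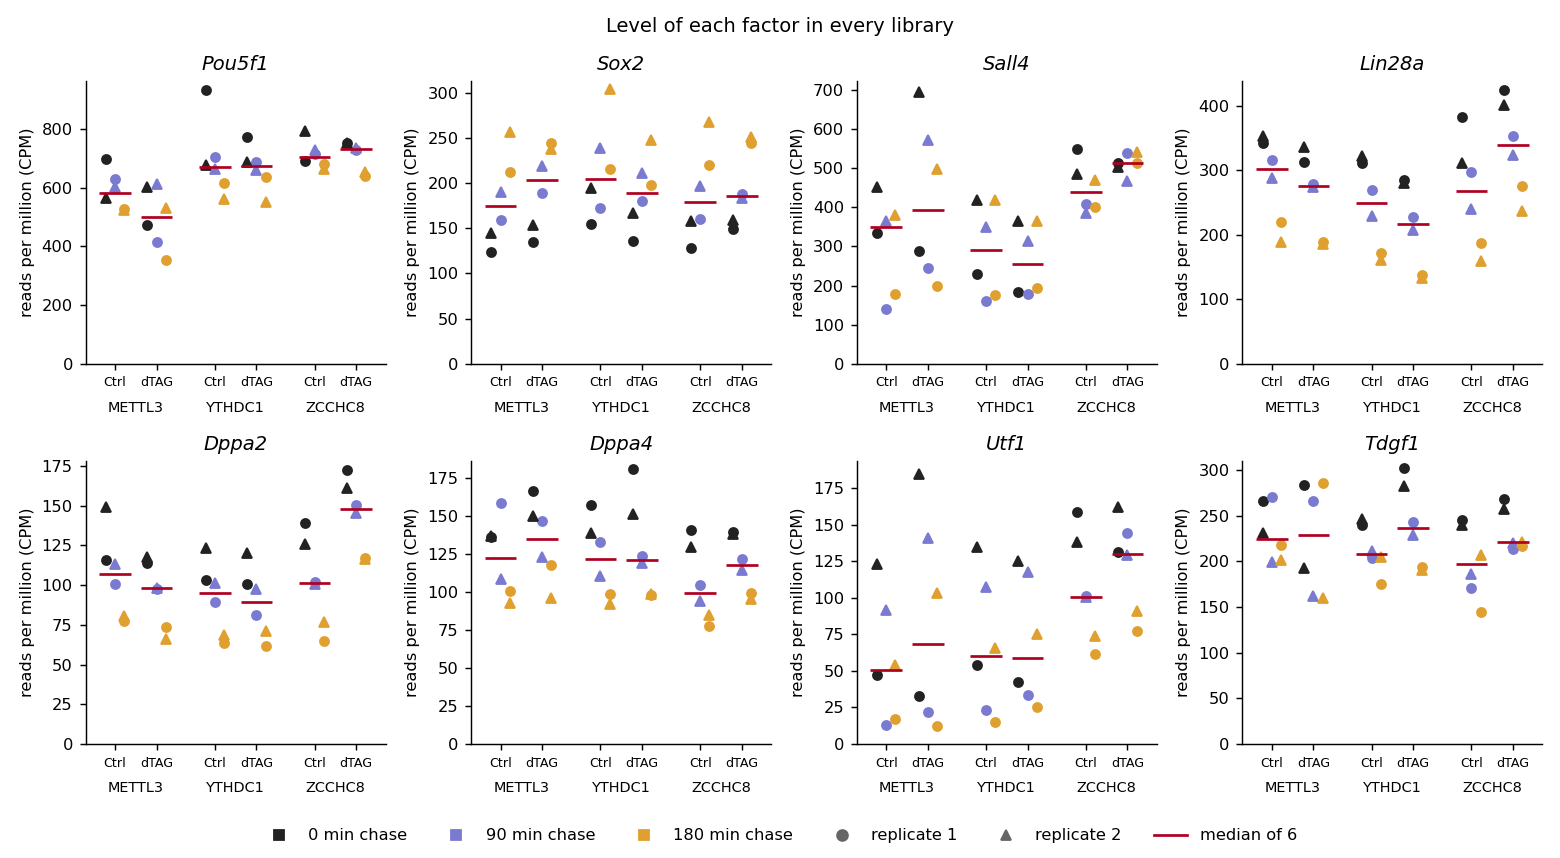
Level of each of the 8 factors in CPM (linear axis from 0) for 3 lines and 2 arms; each point is a library, coloured by chase time and shaped by replicate, and the red bar is the median of 6. Dppa2 and Lin28a sit higher in dTAG than in Ctrl at every chase time of the ZCCHC8 line, whereas Sall4 and Utf1 split by replicate in the METTL3 and YTHDC1 lines.

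In the ZCCHC8 line 5 of the 8 factors were higher after dTAG-13 and none was lower. Of all 13962 genes tested there, 39.6% passed in either direction and 20.1% were higher, against which the count of 5 is to be read. The median log2 fold change over the 8 was 0.22 and that over all genes was -0.00.

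Dppa2 had the largest change. Its level was 64.8, 101 and 139 CPM (lowest, median and highest of 6) in Ctrl and 116, 148 and 172 CPM in dTAG. The arms overlapped, but dTAG was higher in all 6 pairs of the same chase time and replicate. Such pairs are 3 chase times of 2 replicates, not 6 independent cases, and the share of all genes with 6 of 6 was not taken. The log2 fold change was 0.53 ± 0.06 (SE, n = 6 against 6, edgeR adjusted p = 3.92e-07), or 1.44-fold.

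Lin28a had 159, 268 and 383 CPM in Ctrl and 237, 339 and 424 CPM in dTAG. It was again higher in 6 of 6 pairs, by 0.38 ± 0.09 on the log2 scale (edgeR adjusted p = 0.00446), or 1.30-fold. Tdgf1 had 145, 197 and 245 CPM in Ctrl and 213, 221 and 268 CPM in dTAG, higher in 6 of 6 pairs and by 0.24 ± 0.06 (edgeR adjusted p = 0.00416). For both genes the ranges of the arms overlapped.

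Dppa4, the partner of Dppa2 and its neighbour on chromosome 16, had 77.5, 99.3 and 141 CPM in Ctrl and 95.2, 118 and 139 CPM in dTAG. It was higher in 5 of 6 pairs and rose by 0.18 ± 0.06 (edgeR adjusted p = 0.0120). Sall4 had 386, 439 and 548 CPM in Ctrl and 467, 514 and 543 CPM in dTAG, higher in 5 of 6 pairs and by 0.20 ± 0.07 (edgeR adjusted p = 0.0271). The call on Sall4 was lost with the replicate number as a block (0.20 ± 0.08, edgeR adjusted p = 0.0594).

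The other 3 did not pass. Utf1 differed by 0.24 ± 0.09 (edgeR adjusted p = 0.0525), with 61.3, 101 and 159 CPM in Ctrl and 77.3, 130 and 162 CPM in dTAG. Sox2 differed by 0.06 ± 0.05 (edgeR adjusted p = 0.381). Pou5f1 had medians of 705 and 732 CPM in Ctrl and dTAG and a log2 fold change of -0.00 ± 0.04 (edgeR adjusted p = 0.954). Dppa4 lost its call without replicate 2 and with the chase libraries summed (edgeR adjusted p = 0.0572). Sall4 also lost it without replicate 2 and with DESeq2 size factors (edgeR adjusted p = 0.0542). Utf1 passed in 4 of 7 alternatives, among them DESeq2 (adjusted p = 0.0373), and Sox2 in 1, without replicate 2 (log2 difference 0.19). Fits without a replicate had 1 library per group.

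In the METTL3 line none of the 8 passed the test, where 20.1% of 14413 genes did. At an unadjusted p under 0.05 there was 1 (Pou5f1), where 33.5% of genes were, and DESeq2 also called 0. Pou5f1 had 525, 583 and 700 CPM in Ctrl and 355, 502 and 614 CPM in dTAG, a log2 difference of -0.28 ± 0.12 (edgeR adjusted p = 0.143). The arms overlapped, and dTAG was lower in 3 of 6 pairs. Those 3 pairs were all of replicate 1. Without replicate 2 the Pou5f1 difference was -0.57, and without replicate 1 it was 0.02. Each of these fits had 1 library per group.

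Sall4 and Utf1 had wide ranges in this line. Sall4 had 140, 350 and 452 CPM in Ctrl and 199, 393 and 696 CPM in dTAG (0.42 ± 0.33, edgeR adjusted p = 0.413). Utf1 had 12.7, 50.8 and 123 CPM in Ctrl and 12.5, 68.1 and 185 CPM in dTAG (0.53 ± 0.66, edgeR adjusted p = 0.630). With the replicate number as a block 2 of 8 passed, Pou5f1 (-0.29 ± 0.10, edgeR adjusted p = 0.0193) and Sall4 (0.37 ± 0.11, edgeR adjusted p = 0.0110), where 48.5% of all genes did. Without replicate 1 the log2 differences were 0.53 for Sall4, 0.68 for Utf1, -0.32 for Tdgf1 and -0.30 for Dppa2, from 1 library per group. Those of Utf1 and Tdgf1 without replicate 2 were -0.07 and 0.16.

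The other members of the METTL3 line stayed within 0.2 of 0 on the log2 scale. Lin28a was lower in dTAG in 6 of 6 pairs (-0.14 ± 0.09, edgeR adjusted p = 0.338), and so was Dppa2 (-0.18 ± 0.09, edgeR adjusted p = 0.212). Sox2 differed by 0.11 ± 0.09, Dppa4 by 0.11 ± 0.14 and Tdgf1 by -0.05 ± 0.21, none past the threshold.

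In the YTHDC1 line none of the 8 passed either, where 5.25% of 14199 genes did. At an unadjusted p under 0.05 there was 1 (Lin28a), where 18.7% of genes were, and DESeq2 called 0. Lin28a had 161, 249 and 322 CPM in Ctrl and 132, 217 and 284 CPM in dTAG, lower in 6 of 6 pairs (-0.25 ± 0.08, edgeR adjusted p = 0.113). With the replicate block Lin28a (-0.25 ± 0.04, edgeR adjusted p = 0.000153), Sox2 (-0.19 ± 0.05, edgeR adjusted p = 0.00447) and Tdgf1 (0.13 ± 0.05, edgeR adjusted p = 0.0486) passed, 3 of 8, where 27.3% of all genes did. Sox2 had 154, 205 and 304 CPM in Ctrl and 136, 189 and 248 CPM in dTAG, lower in 5 of 6 pairs. The remaining log2 differences were -0.08 for Pou5f1, -0.15 for Sall4, -0.07 for Dppa2, 0.04 for Dppa4 and 0.10 for Utf1.

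**Figure D2:**
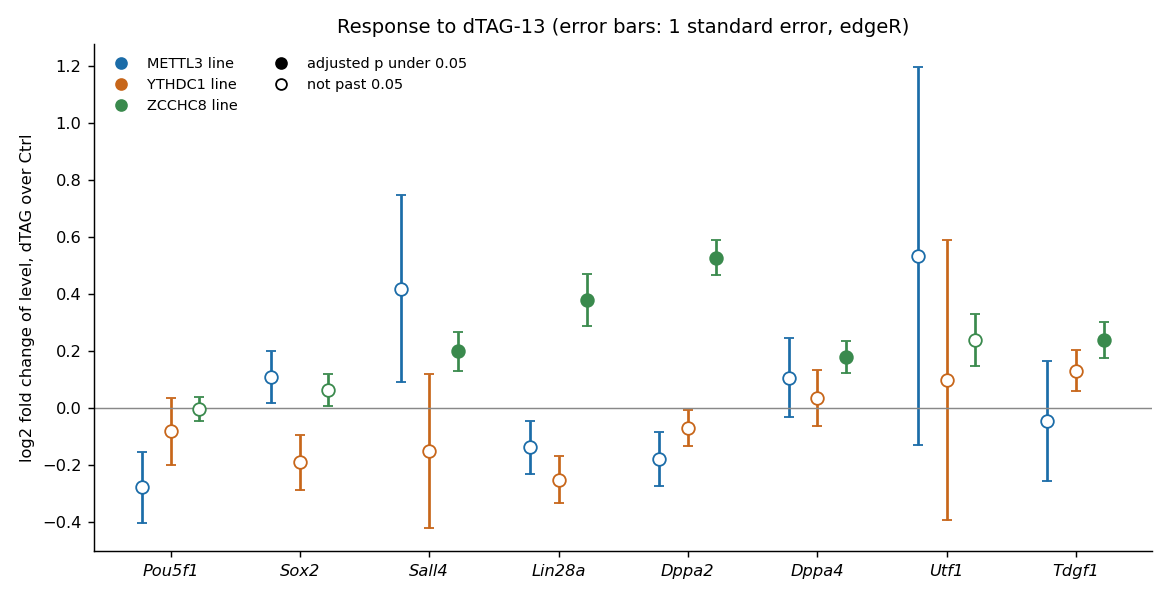
Log2 fold change of level, dTAG over Ctrl (vertical axis), for the 8 factors in the METTL3, YTHDC1 and ZCCHC8 lines; points are edgeR estimates from 6 against 6 libraries, bars are 1 standard error and filled points passed an adjusted p of 0.05. The 5 filled points are all of the ZCCHC8 line, and the widest bar is that of Utf1 in the METTL3 line (0.66). Replicates spread least in the ZCCHC8 line, where changes of 0.18 (Dppa4) and 0.20 (Sall4) passed. Open points of the METTL3 line reached 0.42 (Sall4) and 0.53 (Utf1), so the count of filled points does not compare the lines.

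Whether the responses differed between lines was tested as an interaction over all 36 libraries, 15105 genes. Lin28a responded more strongly in the ZCCHC8 line than in the YTHDC1 line by 0.58 ± 0.13 on the log2 scale (edgeR adjusted p = 0.00247) and than in the METTL3 line by 0.49 ± 0.13 (edgeR adjusted p = 0.00614). Dppa2 did so by 0.55 ± 0.10 (edgeR adjusted p = 0.000397) and 0.68 ± 0.10 (edgeR adjusted p = 1.23e-05). These were 2 of 8 in each comparison, where 14.4% and 23.7% of all genes passed, 7.2% and 11.1% with the larger response in ZCCHC8, and both genes passed in all 6 alternatives of each. Lin28a was higher after dTAG-13 in 6 of 6 pairs of the ZCCHC8 line and lower in 6 of 6 pairs of each of the other lines.

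The other 6 factors did not pass in either of these comparisons. Between the METTL3 and YTHDC1 lines 0 of 8 passed in edgeR, 1 at an unadjusted p under 0.05 and 1 in DESeq2, both Sox2, where 20.6% of all genes passed and 32.1% had an unadjusted p under 0.05. The Sox2 difference was 0.28 ± 0.11 (edgeR adjusted p = 0.0840). It passed with the replicate block (0.28 ± 0.09, edgeR adjusted p = 0.0189), where 30.4% of all genes did.

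Levels in Ctrl cells were compared between the 3 clones. None of the 8 passed in any pair of lines, where 2.43% of 14267 genes differed between METTL3 and YTHDC1, 13.6% between ZCCHC8 and YTHDC1 and 30.7% between ZCCHC8 and METTL3. Unadjusted p-values under 0.05 numbered 4, 3 and 4 of 8, against 16.5%, 36.7% and 45.2% of all genes, and DESeq2 called 1, 1 and 0. With the replicate block 2 of 8 differed between METTL3 and YTHDC1, Lin28a higher (0.23 ± 0.06, edgeR adjusted p = 0.0339) and Sox2 lower (-0.25 ± 0.06, edgeR adjusted p = 0.0152) in METTL3, where 6.04% of genes did. Utf1 differed by 0.91 ± 0.44 (edgeR adjusted p = 0.118), higher in the ZCCHC8 than in the METTL3 line, and Sall4 by 0.62 ± 0.24 (edgeR adjusted p = 0.0831), higher in the ZCCHC8 than in the YTHDC1 line. Without replicate 2 these were 2.15 and 1.22, and without replicate 1 they were 0.26 and 0.19, with 1 library per group in each fit. Ctrl medians of Utf1 were 50.8, 60.1 and 101 CPM in the METTL3, YTHDC1 and ZCCHC8 lines, and those of Sall4 were 350, 290 and 439 CPM. Each line is a single clone, so the tagged protein and the clone cannot be told apart.

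Replicates 1 and 2 of the METTL3 and YTHDC1 lines stood apart for Utf1 and Sall4. Utf1 in METTL3 Ctrl cells had 47.4, 12.7 and 17.1 CPM at 0, 90 and 180 min in replicate 1 and 123, 91.5 and 54.2 CPM in replicate 2. Averaged over the chase, the log2 difference of replicate 1 from replicate 2 was -1.81 in METTL3 Ctrl, -2.60 in METTL3 dTAG, -1.73 in YTHDC1 Ctrl and -1.53 in YTHDC1 dTAG, which placed Utf1 among the lowest 0.21% of 13630 genes in each. In ZCCHC8 the difference was 0.03 in Ctrl and -0.10 in dTAG.

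For Sall4 this difference was -0.85 and -1.16 in METTL3 Ctrl and dTAG and -0.95 and -0.80 in YTHDC1, against 0.06 and 0.08 in ZCCHC8. Pou5f1, next to Utf1 in G and C share, had 0.25 and -0.38 in METTL3 Ctrl and dTAG and 0.36 and 0.25 in YTHDC1, and Dppa2 stayed between -0.13 and 0.15 in the 3 lines. Over 13264 genes the difference between replicates correlated with the G and C share of the transcript, with a Spearman rho of -0.53 in METTL3 Ctrl, -0.77 in METTL3 dTAG, -0.37 and -0.45 in YTHDC1, and -0.12 and -0.21 in ZCCHC8. These are correlations across genes, which share the same libraries. The part of base composition in the values of Utf1 and Sall4 was not tested. The log2 fold changes between arms had correlations with that share of -0.04, -0.05 and 0.02 in the METTL3, YTHDC1 and ZCCHC8 lines.

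**Figure D3:**
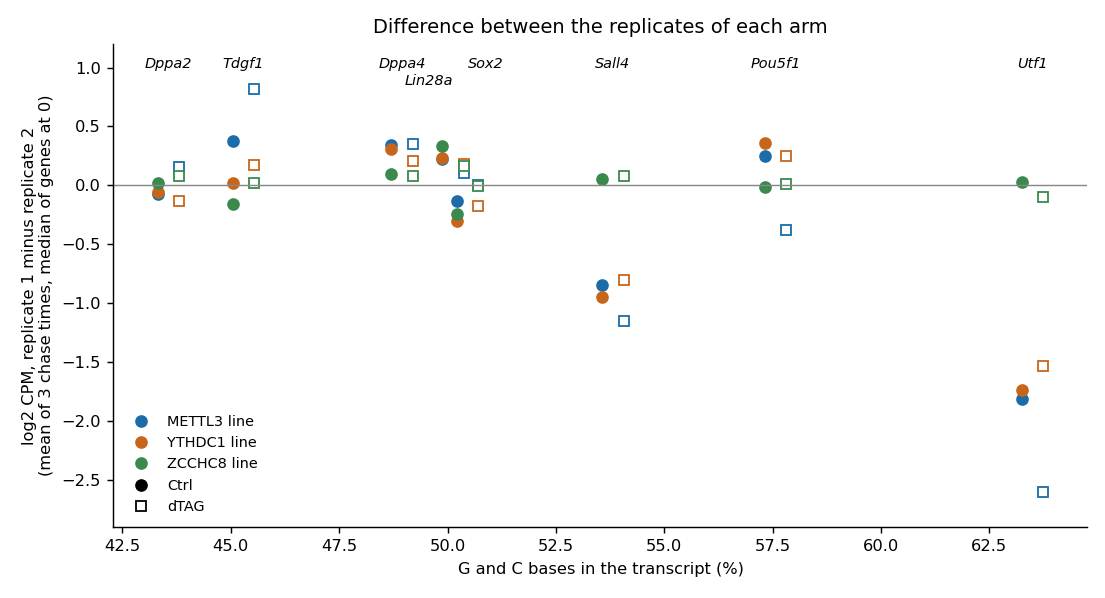
Log2 CPM of replicate 1 minus replicate 2 (vertical axis, mean of 3 chase times, median of all genes set to 0) against the G and C share of the transcript in percent (horizontal axis), for the 8 factors; colours are lines, filled circles Ctrl and open squares dTAG, set slightly to the left and right of the gene's value. Utf1, the richest in G and C at 63.5%, was lowest at -2.60 in METTL3 dTAG, whereas the ZCCHC8 points stay between -0.25 and 0.33.

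The labelled share of each factor's RNA was the new-to-total ratio estimated by GRAND-SLAM, taken at the peak of the posterior (MAP). At the end of the pulse the 8 factors spanned nearly the whole scale. In the 6 Ctrl libraries at 0 min, Sox2 was at 81.9%, 94.4% and 98.3% (lowest, median and highest), Sall4 at 64.2%, 72.6% and 76.7% and Tdgf1 at 56.2%, 62.7% and 69.9%. Dppa2 had a median of 48.9%, Utf1 41.7%, Dppa4 34.8% and Lin28a 32.6%. Pou5f1 was the least labelled, at 12.3%, 13.6% and 14.6%, without overlap with any other member.

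Over all genes tested in the 3 lines the median labelled share of these libraries was 60.4% to 66.9%. Sox2 was thus above it and Pou5f1 below it in each of them. The ratio of a single library rested on 129 reads (Utf1 in METTL3 dTAG, replicate 1 at 180 min, 32.4% with a posterior interval of 25.2% to 40.8% between its 0.05 and 0.95 quantiles) to 11312 reads (Pou5f1).

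**Figure D4:**
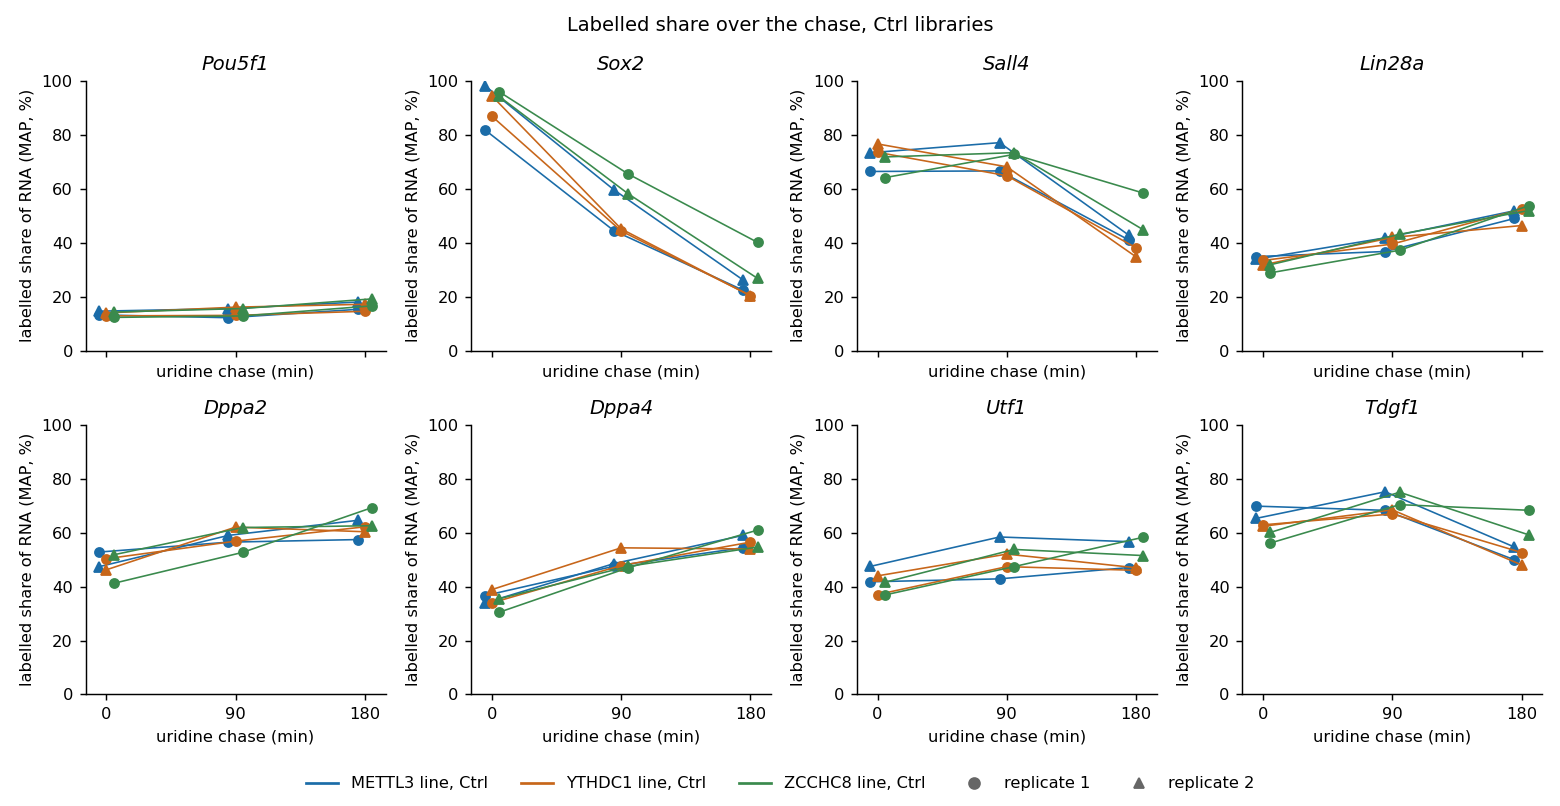
Labelled share of RNA (MAP ratio in percent, vertical axis from 0 to 100) at 0, 90 and 180 min of uridine chase (horizontal axis, lines set slightly apart) in the Ctrl libraries of the 3 lines; each joined series is 1 replicate. Sox2 fell from a median of 94.4% to 24.3%, whereas Lin28a went from 32.6% to 51.9% and Pou5f1 stayed between 12.2% and 19.2%.

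Over the chase the labelled share of Sox2 fell in every series. Its median over 6 Ctrl libraries was 94.4% at 0 min, 51.6% at 90 min and 24.3% at 180 min. The ranges at 0 and 180 min, 81.9% to 98.3% and 20.3% to 40.1%, did not overlap. The slope of log2 ratio per hour in METTL3, YTHDC1 and ZCCHC8 cells was -0.63 ± 0.06 (limma adjusted p = 6.82e-27), -0.72 ± 0.05 (1.63e-13) and -0.51 ± 0.06 (3.67e-09), each from 6 Ctrl libraries. Such small values rest on a spread pooled over all genes tested. Each of these slopes was lower than those of over 99% of genes tested, at the 0.63, 0.79 and 0.48 percentile.

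Sall4 also lost label. Its median share went from 72.6% at 0 min through 70.5% at 90 min to 41.9% at 180 min, with slopes of -0.25 ± 0.06 (limma adjusted p = 0.000232), -0.35 ± 0.06 (2.67e-06) and -0.14 ± 0.06 (0.0551) in the METTL3, YTHDC1 and ZCCHC8 lines. The call in the METTL3 line was lost without replicate 1. Tdgf1 went from 62.7% through 69.5% to 53.7% and passed in no line, with slopes of -0.12, -0.11 and 0.04.

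For Lin28a and Dppa4 the labelled share rose during the chase. In ZCCHC8 Ctrl cells the median share over all genes tested also rose from 0 to 90 min. It went from 60.4% to 65.7% in replicate 1 and from 64.2% to 64.5% in replicate 2. At 180 min this median was 56.45% and 47.0%. In Ctrl cells of the METTL3 and YTHDC1 lines the median fell at each step. Lin28a had 28.8%, 32.6% and 34.9% at 0 min and 46.4%, 51.9% and 53.8% at 180 min, without overlap. Its slopes were 0.18 ± 0.05 (limma adjusted p = 0.000687), 0.20 ± 0.05 (0.000274) and 0.27 ± 0.04 (1.61e-06) in the METTL3, YTHDC1 and ZCCHC8 lines. Dppa4 had 30.5%, 34.8% and 38.9% at 0 min and 54.0%, 55.6% and 61.0% at 180 min, with slopes of 0.23 ± 0.05 (7.79e-05), 0.20 ± 0.05 (0.000935) and 0.27 ± 0.05 (5.71e-06). Without replicate 1 both lost the call in the METTL3 and YTHDC1 lines, and Dppa4 also in the ZCCHC8 line.

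The slope of Dppa2 was 0.09 ± 0.06 in METTL3 (limma adjusted p = 0.171), and it rose in YTHDC1 (0.11 ± 0.05, 0.0487) and ZCCHC8 cells (0.17 ± 0.06, 0.00959). The YTHDC1 call was lost with the replicate block and was kept in only 1 of 6 alternatives. The ZCCHC8 call of Dppa2 was kept in 4 of 6. Utf1 (0.16 ± 0.05, 0.00522) and Pou5f1 (0.14 ± 0.06, 0.0380) rose in the ZCCHC8 line. Utf1 kept this call in 4 of 6 alternatives and Pou5f1 in only 2 of 6. In the other lines both had slopes of 0.07 to 0.08 that did not pass. The median slope over all genes was -0.08, -0.11 and 0.04 in the METTL3, YTHDC1 and ZCCHC8 lines. Among all genes Utf1 stood at the 72.7, 72.9 and 70.5 percentile in these lines and Pou5f1 at the 75.2, 75.2 and 66.8 percentile. In all, 4, 5 and 6 of 8 factors passed in the METTL3, YTHDC1 and ZCCHC8 lines, where 63.4%, 68.6% and 68.1% of 8289, 8820 and 7251 genes did. Rising slopes numbered 2, 3 and 5, against 18.9%, 19.6% and 38.6% of all genes, and falling slopes 2, 2 and 1, against 44.6%, 49% and 29.5%.

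The T-to-C rate, a direct count of conversions over T positions read, gave lower slopes than the ratio. The Sox2 rate went from a median of 7.54% at 0 min to 1.28% at 180 min in Ctrl, that of Lin28a went from 2.53% to 3.32% and that of Pou5f1 from 1.19% to 1.24%. With this measure Lin28a rose past the threshold in the YTHDC1 (0.13) and ZCCHC8 (0.18) lines and not in the METTL3 line (0.11), and Dppa4 in the METTL3 and ZCCHC8 lines (0.16 in each) and not in the YTHDC1 line (0.09). Dppa2, Utf1 and Pou5f1 passed in none, and Sall4 fell past the threshold in all 3 (-0.39, -0.51 and -0.34), as did Tdgf1 in the METTL3 (-0.25) and YTHDC1 (-0.23) lines.

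Levels moved over the same 180 min. In the ZCCHC8 Ctrl cells all 8 factors changed, Sox2 upward and the other 7 downward, where 45.9% of 13179 genes passed, 24.5% higher and 21.5% lower. Sox2 had 128 and 158 CPM at 0 min, 160 and 197 CPM at 90 min and 220 and 268 CPM at 180 min, a slope of 0.22 ± 0.04 log2 units per hour (edgeR adjusted p = 0.000242). Utf1 fell most, from 159 and 138 CPM to 61.3 and 74.0 CPM (-0.41 ± 0.04, 2.03e-06), followed by Lin28a (-0.36 ± 0.05, 0.000103), Dppa2 (-0.33 ± 0.04, 7.33e-06) and Dppa4 (-0.28 ± 0.04, 2.15e-05). Tdgf1 fell by 0.19, Sall4 by 0.12 and Pou5f1 by 0.08 per hour on the log2 scale. With the replicate block 7 of 8 passed and Sall4 did not (edgeR adjusted p = 0.0803), where 49.5% of 13472 genes did. Without replicate 1 Sall4 and Tdgf1 lost the call, and without replicate 2 Pou5f1 did.

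In the YTHDC1 line 3 of 8 passed, Lin28a (-0.34 ± 0.06, edgeR adjusted p = 0.0186), Dppa2 (-0.29 ± 0.05, 0.0183) and Dppa4 (-0.24 ± 0.06, 0.0448), where 11.5% of 13760 genes passed and 2.81% were lower. With the replicate block 7 of 8 passed, all but Sall4, where 47.9% of genes did. In the METTL3 line 0 of 8 passed in edgeR, 3 at an unadjusted p under 0.05 and 3 in DESeq2, where 0.29% of 13801 genes passed and 22.2% had an unadjusted p under 0.05. With the replicate block 4 of 8 passed there, Lin28a (-0.27), Dppa2 (-0.26) and Dppa4 (-0.18) lower and Sox2 (0.25) higher, where 26.1% of 14097 genes did.

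Across all 6 Ctrl series the level of Sox2 at 180 min was 1.40 to 1.77 times that at 0 min, while Lin28a was at 0.49 to 0.64, Dppa2 at 0.47 to 0.67, Dppa4 at 0.55 to 0.74 and Utf1 at 0.27 to 0.54. Pou5f1 was at 0.66 to 0.98 and Tdgf1 at 0.59 to 0.87. The order of these ratios put Sox2 alone above 1, and Sall4 reached from 0.53 to 1.00. CPM is a share of the library, so these are levels relative to all other RNA at that time. Over all genes the slope of level over the chase correlated with the G and C share of the transcript, with a Spearman rho of -0.33 in METTL3, -0.30 in YTHDC1 and -0.07 in ZCCHC8. Utf1, the richest in G and C, had the lowest slope of the 8 in each line (-0.44 ± 0.28, -0.44 ± 0.26 and -0.41 ± 0.04), and the part of base composition in these slopes was not tested.

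Multiplying CPM by the ratio split each level into a labelled and an unlabelled pool. Labelled Sox2 went from 139 ± 27.4 CPM (SD, n = 6) at 0 min to 63.4 ± 16.3 CPM at 180 min, while unlabelled Sox2 went from 11.6 ± 8.05 to 183 ± 37.0 CPM. Labelled Lin28a was 109 ± 8.97 CPM at 0 min and 92.4 ± 12.3 CPM at 180 min, and unlabelled Lin28a went from 228 ± 23.7 to 89.1 ± 12.3 CPM. The higher labelled share of Lin28a thus came with a lower unlabelled pool, and its labelled pool was not higher.

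Dppa4 and Dppa2 had the same arrangement. Labelled Dppa4 was 48.8 ± 4.47 CPM at 0 min and 51.5 ± 4.21 CPM at 180 min, while its unlabelled pool went from 91.1 ± 8.07 to 39.7 ± 5.48 CPM. Labelled Dppa2 went from 60.7 ± 6.67 to 45.1 ± 4.54 CPM and unlabelled Dppa2 from 65.6 ± 12.5 to 26.9 ± 4.46 CPM. Pou5f1 had 98.1 ± 15.4 and 100 ± 16.8 CPM labelled at 0 and 180 min and 629 ± 111 and 496 ± 55.4 CPM unlabelled. No test was run on the pools, which join both measures.

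**Figure D5:**
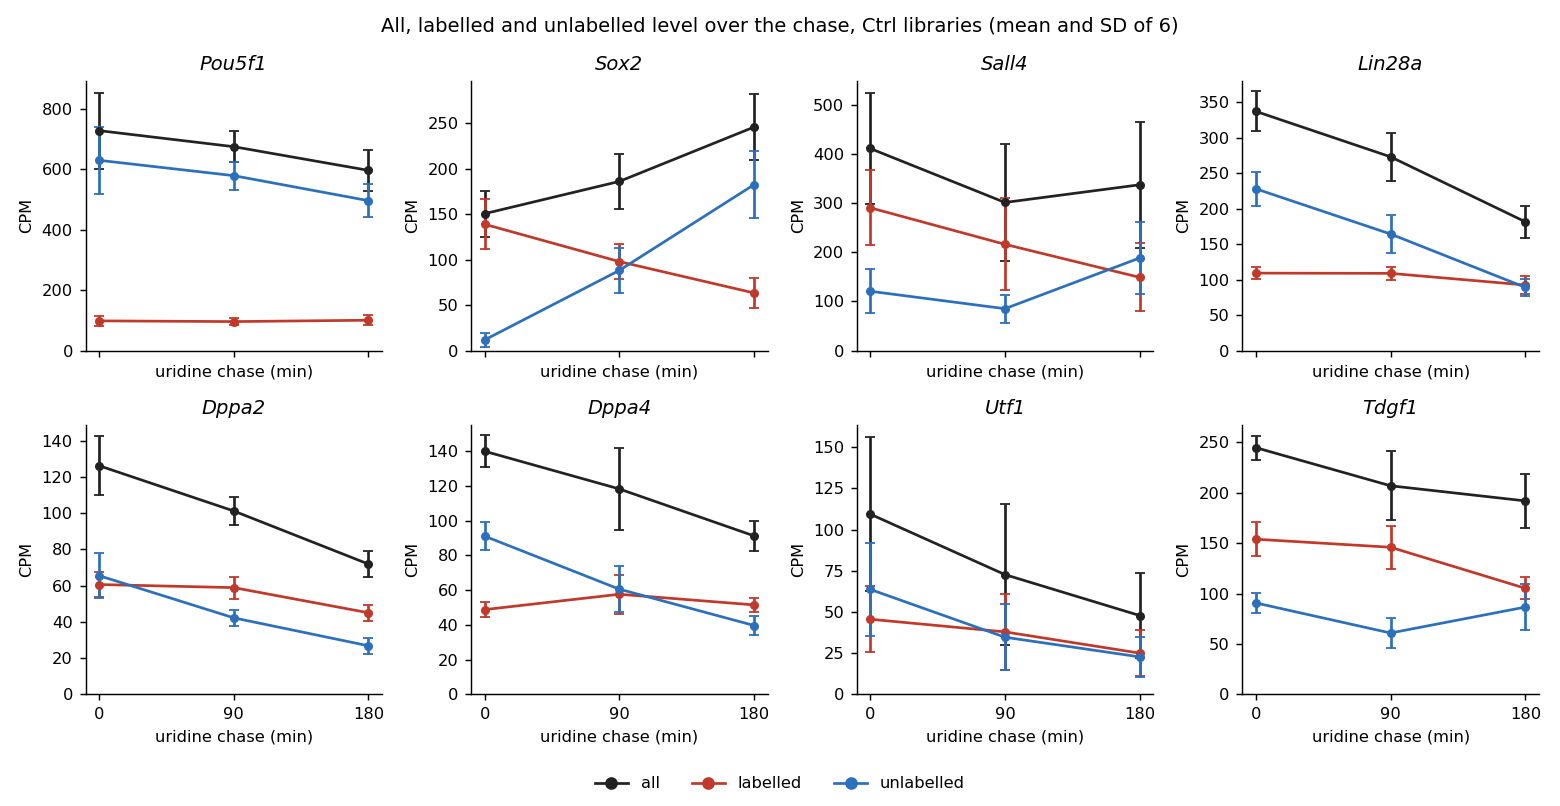
Level in CPM (vertical axis from 0, a scale of its own in each panel) of all RNA, the labelled pool and the unlabelled pool of the 8 factors at 0, 90 and 180 min of chase (horizontal axis); points are means of 6 Ctrl libraries over 3 lines and bars are SD. Mean unlabelled Sox2 went from 11.6 to 183 CPM, whereas the means of unlabelled Lin28a, Dppa2, Dppa4 and Utf1 were lower at 180 than at 0 min.

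Labelling was then compared between the arms. At the end of the pulse 1 of 8 passed in the METTL3 line, Sall4. Its labelled share there was 66.4% and 73.4% in Ctrl and 49.8% and 46.5% in dTAG at 0 min, without overlap, and 66.6% and 77.1% against 50.3% and 59.3% at 90 min. The log2 difference at 0 min was -0.61 ± 0.19 (limma adjusted p = 0.0279), where 13.2% of 8289 genes passed and 12.3% were lower, and the median over all genes was -0.10. The call was lost with the T-to-C rate (-0.60 ± 0.25, limma adjusted p = 0.185), with a looser filter (0.0609) and without either replicate.

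In the YTHDC1 and ZCCHC8 lines none of the 8 passed at the end of the pulse, where 0.0227% of 8820 and 0.0965% of 7251 genes did. None had an unadjusted p under 0.05, as 6.46% and 6.08% of all genes had. Dppa4 had lower values in dTAG in all 3 lines, with log2 differences of -0.33 ± 0.14, -0.14 ± 0.12 and -0.21 ± 0.11, none past the threshold (limma adjusted p = 0.138 or above). The median over all genes was -0.10, 0.01 and -0.05 in the METTL3, YTHDC1 and ZCCHC8 lines. Without replicate 2, with 1 library per group, the Dppa4 difference in the YTHDC1 line was 0.03. The slope of label over the chase changed past the threshold for 0 of 8 in each line, where 0.422%, 0% and 0% of genes passed, and at an unadjusted p under 0.05 for 1, 0 and 0, against 7.17%, 2.21% and 2.03% of all genes. That 1 was Sall4 in the METTL3 line, 0.24 ± 0.10 per hour (limma adjusted p = 0.523). For Lin28a and Dppa2, the factors that rose most in level in the ZCCHC8 line, the changes of slope there were -0.05 ± 0.05 and -0.03 ± 0.06 and the differences at the end of the pulse were -0.12 ± 0.09 and -0.00 ± 0.12.

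Other genes of the pluripotency network were taken from a list of 28 with the members left out, 27 of which were tested. In the ZCCHC8 line 11 were higher and 2 lower (Mybl2 and Tfcp2l1), where 39.6% of all genes passed and 20.1% were higher. The same shares apply to the other lists in that line. The largest changes were those of Foxd3 (0.52 ± 0.19, edgeR adjusted p = 0.0378), Dppa3 (0.49 ± 0.14, 0.0220) and Rif1 (0.37 ± 0.06, 2.72e-05). The median of the 27 was 0.12. In the METTL3 line 3 were higher and 2 lower of 27, near the 20.1% of all genes that passed there, among them the nuclear receptor genes Nr0b1 (-0.62 ± 0.11, 0.00287) and Nr5a2 (0.55 ± 0.12, 0.00695), and Stat3 (-0.54 ± 0.11, 0.00559), which relays LIF signals.

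Of 12 genes of the formative and primed states, 7 were higher and none lower in the ZCCHC8 line, with a median of 0.49. Foxd3 is in this list as well as in the network list, so its call counts in both. Otx2 (0.84 ± 0.13, edgeR adjusted p = 2.92e-05) and Pou3f1 (0.79 ± 0.16, 0.000382) are transcription factors of the exit from the naive state. In the METTL3 line Fgf5 was higher (1.10 ± 0.19, 0.00247) and Dnmt3b lower (-0.51 ± 0.09, 0.00360), and in the YTHDC1 line Dnmt3a was lower (-0.38 ± 0.10, 0.0440). Early lineage genes were higher for 4 of 9 tested in ZCCHC8, led by Sox17 (0.88 ± 0.27, 0.0131), Pax6 (0.82 ± 0.17, 0.000538) and Sox1 (0.58 ± 0.22, 0.0386), for 3 of 10 in METTL3, Eomes (1.80 ± 0.18, 0.000156), Pax6 (1.13 ± 0.18, 0.00164) and Gata6 (1.10 ± 0.33, 0.0378), and for 0 of 11 in YTHDC1, each with none lower.

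The 15 lineage genes together summed to only 86.4 to 132 CPM in ZCCHC8 Ctrl and 106 to 131 CPM in ZCCHC8 dTAG. In the METTL3 line they summed to 54.9 to 125 and 75.9 to 159 CPM. Nes alone had a median of 69.6 CPM over the 36 libraries. The named genes were low, with medians of 4.42 CPM for Eomes, 3.39 for Pax6, 1.31 for Sox1, 0.81 for Gata6 and 0.78 for Sox17. Medians of Foxd3, Fgf5, Twist1 and Acta2 were 4.39, 1.42, 2.14 and 0.65 CPM. Fibroblast markers passed for 2 of 10 in the ZCCHC8 line, Tagln lower (-0.67 ± 0.24, 0.0273) and Col5a2 higher (0.37 ± 0.13, 0.0297), and their sum was 63.1 to 79.3 CPM in Ctrl and 67.4 to 81.5 CPM in dTAG. In the METTL3 line 2 of 10, Twist1 (1.48 ± 0.21, 0.000942) and Acta2 (1.30 ± 0.39, 0.0372), were higher, near the 20.1% of all genes that passed there. The sums in that line were 40.7 to 74.5 and 47.7 to 85.5 CPM. In the YTHDC1 line 0 of 9 passed, where 5.25% of all genes did, with sums of 40.1 to 68.8 and 54.2 to 80.1 CPM. The part of feeder or differentiating cells in the members' values was not tested.

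The genes whose levels ran most like each member were found by Pearson's r of mean log2 CPM over the 18 groups, among 13630 genes. Lin28a and Dppa2 were each the other's runner-up (r = 0.96), behind Sycp1 for Lin28a (0.96) and Mest for Dppa2 (0.97). Dppa4 was the runner-up for Tdgf1 (0.85), behind Fermt2 (0.87). For Sox2 the closest were Etnk1 (0.97) and Atg16l1 (0.95), for Pou5f1 Mvk and Prph (0.98 each), for Sall4 Smarcc2 and Prag1 (0.97 each), for Dppa4 Pdk1 and Lck (0.95 each) and for Utf1 Tbrg4 and Tuba3a (0.97 each). Within the 8, Sox2 ran against the other 7, with r from -0.24 (Sall4) to -0.82 (Dppa4). The groups share lines, chase times and base composition effects, so these values are a description.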

How the data were processed

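Total RNA of 36 SLAM-seq libraries was examined. The authors discarded ribosomal reads, aligned the rest to mm10 with STAR 2.5.2b (unique, end-to-end) and ran GRAND-SLAM, whose version was not given in the sources used here, on each line and replicate. The deposited read counts are raw, unnormalized counts per gene. The deposited new-to-total ratio (MAP) is a fraction from 0 to 1. Conversions, T coverage and gene length are as deposited, and 180 other columns of per-library values were not used. A mismatch limit can remove heavily converted reads.

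Groups came from the sample labels. Counts were tested with edgeR 4.0.16 (filterByExpr with a minimum count of 10, TMM, robust quasi-likelihood, chase time as a factor) and log2 ratios with limma 3.58.1, keeping genes for which no library of a line had under 100 reads or a ratio under 0.02, both with Benjamini-Hochberg adjustment over all genes and a threshold of 0.05. Standard errors of edgeR estimates were taken as the estimate divided by the square root of F. In the METTL3 line limma pooled the spread fully for label loss. DESeq2 1.42.0 was an alternative. R 4.3.3, Python with pandas, and GENCODE M21 were used. Tests were tried on simulated data.

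Same-numbered Ctrl and dTAG libraries deviated together (correlations 0.57 to 0.75 in METTL3, 0.63 to 0.70 in YTHDC1, 0.16 to 0.18 in ZCCHC8). Every pair was over 0.1, and the numbers were taken to pair the arms within a line. That cutoff does not show that the pairing is particular to a line. Same-numbered Ctrl libraries of the METTL3 and YTHDC1 lines also deviated together, with correlations of 0.49 to 0.85. In ZCCHC8 the correlations of the arms were under the 0.19 of YTHDC1 against ZCCHC8 Ctrl libraries at 180 min. Ctrl libraries of the same number also deviated together across chase times (0.60 to 0.80, 0.59 to 0.80 and 0.13 to 0.25 in the METTL3, YTHDC1 and ZCCHC8 lines). The main tests took no account of this. Replicates differed beyond sampling noise. Chi-square per degree of freedom was 20.3 to 77.9 in METTL3, 26.6 to 38.5 in YTHDC1 and 2.45 to 4.50 in ZCCHC8 groups. Depth was 5274684 to 18652000 reads, and posterior intervals cover counting error only. The 8 members were always named. From each list at most 3 genes a line with the largest change past the threshold were named, others being named after their values were seen. The 2 genes most like each member were named by Pearson's r. Members and lists were chosen with earlier results of these data known. The response of the network list in the YTHDC1 line is not reported here.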

Additional observations from a re-analysis of the deposited data

Results flagged for a closer look

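The response of Lin28a to dTAG-13 in the ZCCHC8 line differed from that in each of the other lines, by the interaction test. It was larger in the ZCCHC8 line than in the YTHDC1 line by 0.58 on the log2 scale and than in the METTL3 line by 0.49. Pairs of the same chase time and replicate were higher in dTAG in 6 of 6 cases in the ZCCHC8 line and lower in 6 of 6 in each of the other lines. These pairs are 3 chase times of 2 replicates, so they are not 6 independent cases.

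Dppa2 differed in the same way, by 0.55 between the ZCCHC8 and YTHDC1 lines and by 0.68 between the ZCCHC8 and METTL3 lines. It was higher in 6 of 6 pairs of the ZCCHC8 line, and lower in 6 of 6 in the METTL3 line and 5 of 6 in the YTHDC1 line. Each line is 1 clone, so the protein removed and the clone cannot be told apart. No group had enough libraries to test a single library as an outlier.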

How the results depend on the processing

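Of 1032 member values under an alternative, 97 passed the threshold where they had not, 34 no longer passed and none of those that passed in either fit changed sign, while 58 that passed in neither did. Counts of factors past the threshold moved as follows. The replicate block gave 2 against 0 (METTL3 response), 3 against 0 (YTHDC1 response), 4 against 0 and 7 against 3 (level over the chase, METTL3 and YTHDC1), and 1 against 0 (METTL3 against YTHDC1 response). For Ctrl levels it gave 2 (METTL3 against YTHDC1), 4 (ZCCHC8 against YTHDC1) and 6 (ZCCHC8 against METTL3), all against 0. Of all 14427 genes 6.04%, 36.7% and 46.6% passed in these comparisons. The replicate numbers were not taken to pair the ZCCHC8 line with the others. Not every such pair of libraries had a correlation over 0.1 (-0.03 to 0.19). The block took Sall4 from the ZCCHC8 calls of response and chase and Dppa2 from the YTHDC1 label loss. It also gave the calls counted here or named beside the results, and changed no other call. DESeq2 gave 3 (METTL3 chase), 1 (METTL3 against YTHDC1 response) and 1 each for the Ctrl levels of METTL3 and of ZCCHC8 against YTHDC1, all against 0. A looser filter and the T-to-C rate each gave 0 in place of 1 for METTL3 label at pulse end.

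Leaving out 1 replicate number gave 1 to 4 factors for the METTL3 response, 1 to 3 for YTHDC1 and 4 to 6 for ZCCHC8; 2 to 5, 6 to 7 and 6 to 7 for the level over the chase; 1 to 4, 2 to 4 and 2 to 5 for label loss; 0 for label at pulse end in METTL3; 2 to 6 (METTL3 against YTHDC1), 2 to 4 (ZCCHC8 against YTHDC1) and 3 to 5 (ZCCHC8 against METTL3) for responses between lines; and 0 to 5, 2 to 3 and 4 to 5 for Ctrl levels in the same order. Such fits have 1 library per group, assumed to vary like the rest. Without replicate 1, label loss kept its call for Sox2 in every line, Sall4 in YTHDC1 and Lin28a in ZCCHC8 only. The cause of these moves was not tested.

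Over all genes, calls of the level response went from 2898 to 6994 with the block in METTL3 and from 746 to 3875 in YTHDC1, and to 0 in both with the chase libraries summed. Without a replicate they were 5717 to 7472, 1335 to 3555 and, in ZCCHC8 (5533), down to 3409. Calls over the chase went from 40 to 292 without the count filter, 1152 in DESeq2 and 3685 with the block in METTL3, and from 1583 to 2528 in DESeq2 and 6741 with the block in YTHDC1. Calls of label loss fell without replicate 1 from 5257 to 1554 (METTL3), 6054 to 3790 (YTHDC1) and 4936 to 2263 (ZCCHC8). Depth limits Utf1 most, with 129 reads in the lowest library.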

Other observations

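The slopes of labelled share were also taken for the other genes of the pluripotency network. In Ctrl cells 15 of 25 fell and 4 rose in the METTL3 line, 16 of 26 fell and 4 rose in the YTHDC1 line, and 11 of 25 fell and 7 rose in the ZCCHC8 line. Of all genes tested 44.6%, 49% and 29.5% fell in these lines, and the list was not tested against them. Fgf4, a growth factor gene downstream of OCT4 and SOX2, had slopes of -0.63 ± 0.06, -0.74 ± 0.05 and -0.48 ± 0.06 log2 units per hour, and Klf2, a naive-state transcription factor, had -0.63 ± 0.05, -0.80 ± 0.05 and -0.50 ± 0.06, close to those of Sox2. Dnmt3b, the de novo DNA methyltransferase, rose in the ZCCHC8 line (0.33 ± 0.05, limma adjusted p = 8.44e-07).

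The letters GGACT, a common form of the m6A consensus, occurred in 92.4% of 13264 coding transcripts, searched on the transcript strand only, with a median of 1.05 per kb. Among the members Utf1 had 1.63 per kb, Tdgf1 1.55, Sox2 1.46, Lin28a 1.43, Sall4 0.99, Pou5f1 0.73 and Dppa2 0.41, and the Dppa4 transcript had none. A match of letters is not a measured m6A site.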
